A study of Mus musculus with 18 samples.

Results

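Vomeronasal type 1 receptor (V1R) genes encode G protein-coupled receptors of the vomeronasal organ, where they detect pheromones and related social odours. The set examined here is every protein-coding mouse gene with a symbol made of Vmn1r and a number in the GRCm38 gene table. It holds 230 genes. Of these, 228 have coordinates on an assembled chromosome, out of 21774 such protein-coding genes in all, and Vmn1r186 and Vmn1r187, listed with scaffold coordinates, were left out.

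The series mapped open chromatin by ATAC-seq, which reads out where a transposase can cut and tag DNA, in mouse embryonic stem (ES) cells of the line dTKO. All libraries share the genotype Suv39h1fl/fl, Suv39h2-/- and Setdb1fl/fl, alleles of 3 genes for enzymes that methylate histone H3 on lysine 9, and all groups are labelled with auxin (100 µg/ml) and dTAG13 (0.5 µM), agents that trigger degradation of suitably tagged proteins. The 18 libraries fall into 6 groups of 3, taken 0, 3, 6, 12, 24 and 48 h after treatment. The labels name a single line and do not say which proteins carry a tag. The values are positions of 166066 peaks merged over all libraries, of which 165744 lie on assembled chromosomes, and nothing in the list ties a peak to a time or library. Changes after 0 h, an error between replicates and depth could therefore not be assessed for any receptor gene, and every value below describes the pooled set.

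V1R proteins couple to the G protein subunit Gαi2 and, through the channel TRPC2, excite sensory neurons of the apical layer of the vomeronasal organ. Each neuron is thought to express a single receptor gene, mostly from one allele, while the rest of the family stays silent. The genes lie in tandem clusters that arose by repeated duplication, and their coding sequence sits in a single exon. ES cells are not known to use these receptors. All 8 ES cell marker genes examined, among them Pou5f1, Nanog and Sox2, had a peak within 500 bp of an annotated end, against 71.4% of all protein-coding genes. All 8 markers of vomeronasal neurons had one too, so these peaks do not by themselves show the cell type.

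The upstream sequences of 4 genes show what the annotated receptor starts look like and where the nearest open chromatin lay. They are RefSeq sequences of build GRCm38.p6, 250 bases before and 50 bases from the annotated start, 5′ to 3′ on the gene's strand, with CG dinucleotides in capitals. Vmn1r77 is shown because it alone had a peak over this window, Vmn1r83 because its window is the closest to it among the receptors, Vmn1r222 because its peak lay inside the gene, and Vmn1r111 because 5 other receptor genes carry exactly the same 300 bases. The windows are chr7:12041049-12041348 (plus strand), chr7:12322079-12322378 (minus), chr13:23232992-23233291 (minus) and chr7:20703167-20703466 (minus).
Vmn1r77: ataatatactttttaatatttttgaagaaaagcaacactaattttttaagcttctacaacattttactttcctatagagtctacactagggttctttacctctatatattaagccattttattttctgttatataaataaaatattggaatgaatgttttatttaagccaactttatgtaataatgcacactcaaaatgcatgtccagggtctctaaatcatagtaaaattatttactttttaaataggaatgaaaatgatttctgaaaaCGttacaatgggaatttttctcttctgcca
Vmn1r83: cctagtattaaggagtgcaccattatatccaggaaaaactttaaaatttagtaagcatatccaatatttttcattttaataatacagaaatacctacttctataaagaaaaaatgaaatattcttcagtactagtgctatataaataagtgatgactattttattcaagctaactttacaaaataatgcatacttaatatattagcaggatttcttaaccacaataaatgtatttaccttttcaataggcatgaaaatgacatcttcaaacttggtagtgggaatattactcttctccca
Vmn1r222: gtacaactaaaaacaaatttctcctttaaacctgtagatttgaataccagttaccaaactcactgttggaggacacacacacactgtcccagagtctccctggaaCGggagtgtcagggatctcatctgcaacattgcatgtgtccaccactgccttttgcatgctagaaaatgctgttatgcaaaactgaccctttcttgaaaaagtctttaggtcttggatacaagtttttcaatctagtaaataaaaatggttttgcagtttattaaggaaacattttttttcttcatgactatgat
Vmn1r111: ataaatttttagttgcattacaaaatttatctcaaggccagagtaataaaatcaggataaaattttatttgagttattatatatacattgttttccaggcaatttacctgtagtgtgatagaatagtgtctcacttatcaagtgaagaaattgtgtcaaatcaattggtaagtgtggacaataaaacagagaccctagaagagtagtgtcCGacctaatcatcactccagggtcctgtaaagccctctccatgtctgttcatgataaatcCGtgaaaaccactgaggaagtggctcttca
The peak near Vmn1r77 covered the first 62 bases of its window. The window of Vmn1r83 matched that of Vmn1r77 at 63.7% identity and held no CG, whereas Vmn1r77 held 1, Vmn1r222 held 1 and Vmn1r111 held 2.

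Few V1R genes had open chromatin at their ends. A peak overlapped the 500 bp on either side of an annotated start or end in 10 of 228 V1R genes (4.39%, 95% Wilson interval 2.4 to 7.88). Over all protein-coding genes the share was 71.4%, or 15550 of 21774. Intervals of shares cover counting error over genes only, and neighbouring genes are not independent. Within 10 kb of the gene, 84 V1R genes had a peak (36.8%, 30.8 to 43.3), against 90.7% of all protein-coding genes, and 144 had none. The V1R genes are short, with a median annotated length of 924 bp against 17219 bp, so the same rule scans less DNA around them. In a window of fixed length, 20 kb centred on the gene midpoint, the shares were 34.6% and 79.2%. The nearest peak lay a median of 12.8 kb from a V1R gene (quartiles 7.52 and 23.4, range 0 to 92.3 kb), whereas a peak overlapped the body of 81.6% of all protein-coding genes and of 4 V1R genes. The 84 genes had 129 different peaks within 10 kb. Of these, 6 peaks were shared by neighbouring receptor genes, so most of these peaks stood near 1 receptor gene. Of the 84 genes, 52 had 1 peak within 10 kb, 23 had 2 and 9 had 3 or more. Around the 10 kb limit, Vmn1r119 stood at 9.90 kb and Vmn1r229 at 9.92 kb, and Vmn1r253 at 10.1 kb.

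The 10 genes with a peak at an end lie in 5 of the 8 clusters. On chromosome 6, Vmn1r4 (56923914 to 56957608, GRCm38) had a peak of 1149 bp across its lower-coordinate end, and Vmn1r14 (57226155 to 57234350) a peak of 445 bp 103 bp outside that end. Both belong to the V1rc family, are on the plus strand, and have long annotated bodies of 33695 and 8196 bp. Their starts in the promoter table, the first listed for each gene, lay inside those bodies, with the nearest peaks 8768 and 3408 bp away. The open ends are therefore not those starts. Vmn1r32 (66552183 to 66559708), also V1rc, had a peak of 217 bp at 161 bp beyond its 3′ end.

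Vmn1r48 (chromosome 6, 90035933 to 90036841), a V1ra receptor, stood next to the widest of these peaks. The peak ran over 2584 bp, from 90033348 to 90035931, and ended 2 bp before the 3′ end of the gene. Vmn1r47 (90021888 to 90022820) faces it from the other side, on the opposite strand, and its own nearest peak was the same one, at 10.5 kb. The upstream windows of these 2 genes are identical in all 300 bases, but Vmn1r48 had its nearest peak 910 bp from the start and Vmn1r47 at 11460 bp.

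On chromosome 7 the open ends belonged to Vmn1r77, Vmn1r83 and Vmn1r86. Vmn1r77 (12041299 to 12042219) had a peak of 490 bp that ended 189 bp before its start, the closest of any peak to a V1R start in the table. Vmn1r86 (13101997 to 13102947) had a peak of 467 bp at 406 bp upstream. Vmn1r83 (12320250 to 12322128), a V1rg receptor, had a peak of 639 bp at 464 bp beyond its 3′ end, near the limit of the window. Of the genes just outside that limit, Vmn1r56 had its nearest peak at 0.653 kb and Vmn1r212 at 0.743 kb.

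Chromosome 13 held the remaining 3, all of the V1rh family. In Vmn1r220 (23183628 to 23184524) a peak of 523 bp lay wholly within the gene, and in Vmn1r222 (23232115 to 23233041) a peak of 266 bp did so, starting 308 and 363 bp downstream of their starts. Both genes are so short that such a peak falls within 500 bp of both ends. Vmn1r208 (22772399 to 22773325) had a peak of 772 bp at 272 bp beyond its 3′ end. By strand, the peaks lay at the 5′ end alone in 4 of the 10 genes, at the 3′ end alone in 4, and at both ends in 2.

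Strand was known for 205 V1R genes, from the promoter table. The first start listed for a gene was used, and any other listed start was not scored. A peak lay within 500 bp of the annotated start in 4 of them, Vmn1r77, Vmn1r86, Vmn1r220 and Vmn1r222 (1.95%, 0.761 to 4.91), against 69.6% of 17492 protein-coding genes with such an entry. Peaks were about as frequent upstream as downstream of V1R starts. In the 10 kb upstream, 37 of 205 genes had a peak (18.0%, 13.4 to 23.9), and in the 10 kb downstream 36 had one (17.6%, 13 to 23.4). Over all protein-coding genes both shares were 81.2%. At the start itself, 0 of 205 V1R genes were covered by a peak, against 66.2% of all protein-coding genes. A count of 0 allows a share of up to 1.46% by the rule of 3, that is 3 divided by 205. It is not a Wilson bound.

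**Figure D1:**
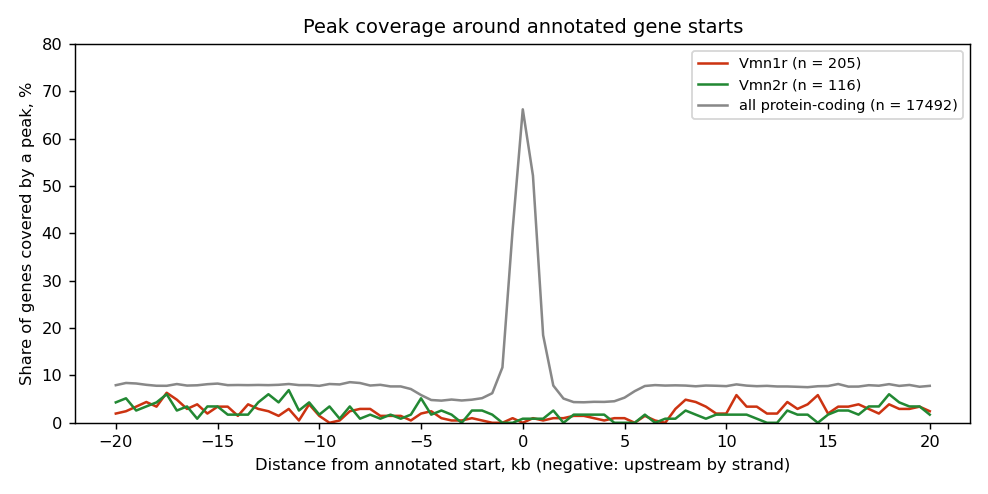
Share of genes covered by a peak (y axis, %) at each 500 bp step from 20 kb upstream to 20 kb downstream of the annotated start (x axis, kb, by strand), for 205 Vmn1r genes (red), 116 Vmn2r genes (green) and 17492 protein-coding genes (grey). The grey line reaches 66.2% at the start, where the red line is at 0.

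Most annotated V1R starts were start codons. The base triplet at the start was ATG in 180 of 205 V1R genes (87.8%), against 100 of 116 Vmn2r genes (86.2%) and 9.55% of all protein-coding genes. For most receptors the annotated gene thus begins at a start codon, so an exon or promoter farther upstream would not be marked in the table. Open chromatin was therefore also counted farther out. Peaks between 2 and 5 kb upstream were found for 12 genes (5.85%), between 5 and 10 kb for 29 (14.1%), and between 10 and 20 kb for 76 (37.1%). Over all protein-coding genes the shares were 24.9%, 46.9% and 65.3%. Downstream of V1R starts they were 5.37%, 12.7% and 38.5%, much as upstream. The ranges differ in width, so the rise with distance does not mark out upstream promoters.

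The V1R upstream windows were poor in G, C and CG, and so were those of 116 type 2 vomeronasal receptor (Vmn2r) genes. Median GC content was 36% in V1R windows (quartiles 33.7 and 37.7), against 38% in Vmn2r windows and 56.3% over all protein-coding genes. V1R windows held a median of 1 CG dinucleotide in 300 bases, against 1 in Vmn2r and 13 in all protein-coding windows. No CG stood in 44 V1R windows (21.5%), against 27.6% of Vmn2r and 5.20% of all windows. Of the 205 V1R genes, 203 had 0 to 4 CG in the window, and 4 of these 203 had a peak within 500 bp of the start (1.97%, 0.769 to 4.96). Of all protein-coding genes with 0 to 4 CG, 777 of 5101 had such a peak (15.2%, 14.3 to 16.2), and of those with 5 or more, 91.9%. The part of CG content in the V1R result was not tested.

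Short motifs were counted on both strands of the same windows, each on its own even where matches overlapped. TATAAA, the core of the TATA box, stood in 87 of 205 V1R windows (42.4%), in 23.3% of Vmn2r windows and in 13.3% of all protein-coding windows. ATGNAAAT, a pattern of the octamer bound by POU factors, stood in 57 V1R windows (27.8%, against 21.6% of Vmn2r and 5.22% of all windows), and TAATTA, a homeodomain pattern, in 15 (7.32%, against 17.2% and 4.68%). CCCNNGGG, a core of the site of Ebf factors, which act in olfactory neurons, stood in 1 V1R window (0.488%, against 19% of Vmn2r and 15.3% of all windows). The windows are rich in A and T, which raises the matches expected for patterns of these letters, and many windows are near copies of each other. A match shows the letters, not binding. TAATTA and CCCNNGGG read the same on both strands.

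The 8 clusters held 221 of the 228 genes. A cluster was a run of at least 3 V1R genes with neighbours at most 1 Mb apart. Chromosome 6 has clusters 6A (Vmn1r4 to Vmn1r31, 28 genes), 6B (Vmn1r32 to Vmn1r39, 8) and 6C (Vmn1r40 to Vmn1r54, 15). Chromosome 7 has 7A (Vmn1r55 to Vmn1r65, 11), 7B (Vmn1r66 to Vmn1r89, 24) and 7C (Vmn1r91 to Vmn1r183, 86), and chromosomes 13 and 17 have 1 each, with 35 and 14 genes.

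Cluster 13 had the highest share of genes with a peak within 10 kb and cluster 7C the lowest. In cluster 13 the share was 20 of 35 (57.1%, 40.9 to 72.0), with a median distance of 7.62 kb. In 7C it was 23 of 86 (26.7%, 18.5 to 36.9), with a median of 17.0 kb. The intervals of these 2 clusters do not overlap. The other clusters lay between them, at 28.6% in 6A, 33.3% in 7B, 37.5% in 6B, 40% in 6C, 45.5% in 7A and 50.0% in 17, with intervals that overlap one another.

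**Figure D2:**
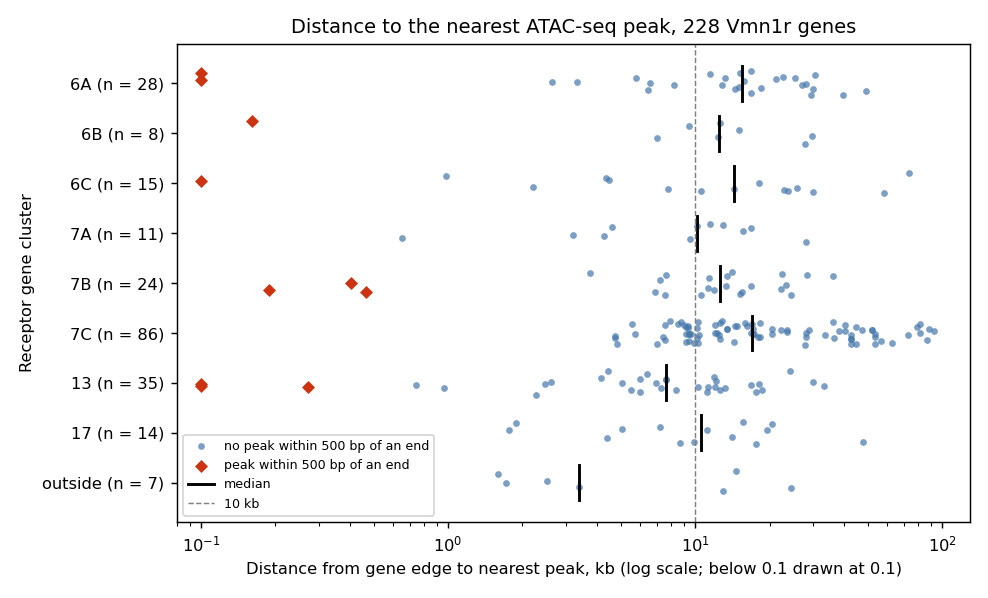
Distance from each of 228 Vmn1r genes to its nearest peak (x axis, kb, log scale, values under 0.1 drawn at 0.1) by cluster (y axis). Each point is a gene, diamonds are the 10 genes with a peak within 500 bp of an end, bars are medians and the dashed line marks 10 kb. No gene of 7C lies closer than 4.74 kb.

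Within a cluster the distances spread widely. In 6C, home of the V1ra and V1rb receptors whose deletion alters sexual behaviour and maternal aggression in mice, Vmn1r43 had its nearest peak at 0.979 kb and Vmn1r51 at 73.4 kb. Vmn1r49, the V1rb receptor known to respond to the ketone heptanone, had its nearest peak at 22.8 kb. In 6A, Vmn1r9 stood at 2.62 kb and Vmn1r6 at 49.1 kb, and in 6B, Vmn1r33 at 7.0 kb and Vmn1r39 at 29.8 kb. These are the nearest gene without an open end and the farthest gene of each cluster.

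On chromosome 7 the same pairs were Vmn1r56 (0.653 kb) and Vmn1r58 (28.2 kb) in 7A, Vmn1r80 (3.75 kb) and Vmn1r69 (36.1 kb) in 7B, and Vmn1r250 (4.74 kb) and Vmn1r260 (92.3 kb) in 7C. Vmn1r260 was the farthest V1R gene from any peak. In cluster 13 they were Vmn1r212 (0.743 kb) and Vmn1r216 (33.3 kb), and in cluster 17 Vmn1r234 (1.77 kb) and Vmn1r228 (47.8 kb). Of the 16 V1R genes over 50 kb from a peak, Vmn1r50 and Vmn1r51 lie in 6C and all others in 7C.

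Older names assign 127 of the 228 genes to 11 families, V1ra to V1rk. Most families sit in a single cluster, but several clusters hold more than 1 family. In 7C, V1rd genes had a peak within 10 kb in 5 of 11 cases (45.5%, 21.3 to 72.0) and genes with no family name in 18 of 75 (24.0%, 15.8 to 34.8), with intervals that overlap. V1rh (20 genes) and V1ri (9), both of cluster 13, had a peak within 10 kb in 12 (60%) and 6 genes (66.7%). V1rc (31 genes, clusters 6A and 6B) had one in 10 (32.3%), V1rd (20, in 7A, 7B and 7C) in 9 (45%), V1re (13) in 5 (38.5%), V1ra (9) in 4 (44.4%), V1rb (6) in 2 (33.3%), V1rg (11) in 3 (27.3%) and V1rf (5) in 3 (60%). Vmn1r85 and Vmn1r89, the V1rj receptors known to respond to sulfated steroids, had nearest peaks at 11.4 and 11.3 kb. The 101 genes with no family name, 75 of them in 7C, had a peak within 10 kb in 29 cases (28.7%).

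Between receptor genes, open chromatin was present but sparse. The 213 stretches between consecutive V1R genes of a cluster span 11.8 Mb and held 524 peak midpoints, or 44.3 peaks per Mb (95% exact Poisson interval 40.6 to 48.2). The 500 kb on either side of the clusters held 102 per Mb (95 to 109), and the median over autosomes was 65.9. Of the 213 stretches, 71 held no peak (33.3%). Among stretches of 10 to 50 kb, 90 of 155 held a peak, and among longer ones, 52 of 57. The longest stretch without a peak in a cluster was 188 kb, in 7C, and held 4 receptor genes, from Vmn1r258 to Vmn1r260. It was 160.3 kb in 6C with 4 receptor genes (Vmn1r49 to Vmn1r52), 145 kb in 7B with 1 (Vmn1r67), 106 kb in cluster 17 with 3 and 105 kb in 6A with 4 (Vmn1r5 to Vmn1r8). In 7A, cluster 13 and 6B it was 80.2, 68.9 and 62.2 kb, with 0, 3 and 2 receptor genes. Over all autosomes, 1.64% of stretches between neighbouring peaks exceeded 100 kb. That share is over single stretches, whereas the lengths above are the longest of many in each cluster. It therefore does not show whether such lengths are unusual. Peaks between V1R genes were of ordinary width, with a median of 586 bp against 578 bp over all chromosomes.

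**Figure D3:**
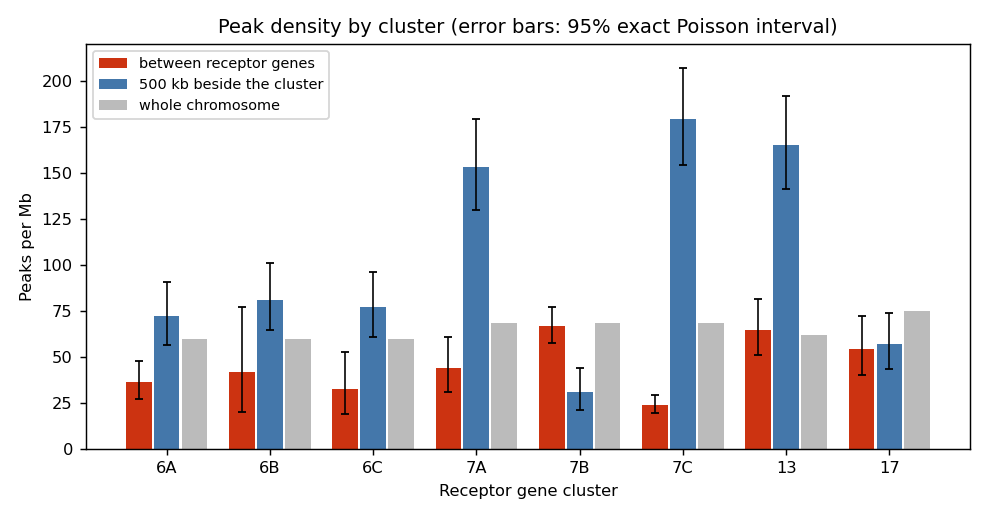
Peaks per Mb (y axis) between receptor genes (red), in the 500 kb on both sides of the cluster (blue) and on the whole chromosome (grey), for each of the 8 clusters (x axis), with 95% exact Poisson intervals. The red bar is below the blue bar in every cluster except 7B.

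The clusters differed in how they stood out from their surroundings. In 7C there were 23.8 peaks per Mb between receptor genes (19.2 to 29.2) and 179 beside the cluster (154 to 207), a ratio of 0.133. In 7A the densities were 43.7 and 153, in cluster 13 they were 64.7 and 165, and in the 3 clusters of chromosome 6 they were 32.7 to 41.8 inside and 72.0 to 81.0 outside. In cluster 17 the inside, at 54.5, and the outside, at 57.0, differed by less than their counting intervals. In 7B the order turned, with 66.8 inside (57.7 to 76.8) and 31.0 outside (21.1 to 44.0). Against whole chromosomes, cluster 13 stood near the 61.6 peaks per Mb of chromosome 13, and 7B near the 68.1 of chromosome 7. The other clusters lay below their chromosomes, which held 59.8 (chromosome 6), 68.1 (chromosome 7) and 75.1 (chromosome 17). The interval of 6B (20.0 to 76.9) holds the value of its chromosome.

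Most peaks of 7B lay in stretches that hold other genes. Its 2 stretches over 500 kb, from Vmn1r71 to Vmn1r72 and from Vmn1r84 to Vmn1r85, held 150 of its 195 peaks, or 91.4 per Mb (77.3 to 107). The other 21 stretches held 45 peaks, or 35.2 per Mb (25.7 to 47.1). Named genes of these regions that had a peak at an end include Trim28 (chromosome 7, 13024152 to 13031032), which encodes a corepressor that recruits Setdb1, and zinc finger genes such as Zfp551 and Zfp128. Zscan4c, a gene of the embryonic 2-cell stage, had none, with its nearest peak at 7.65 kb.

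**Figure D4:**
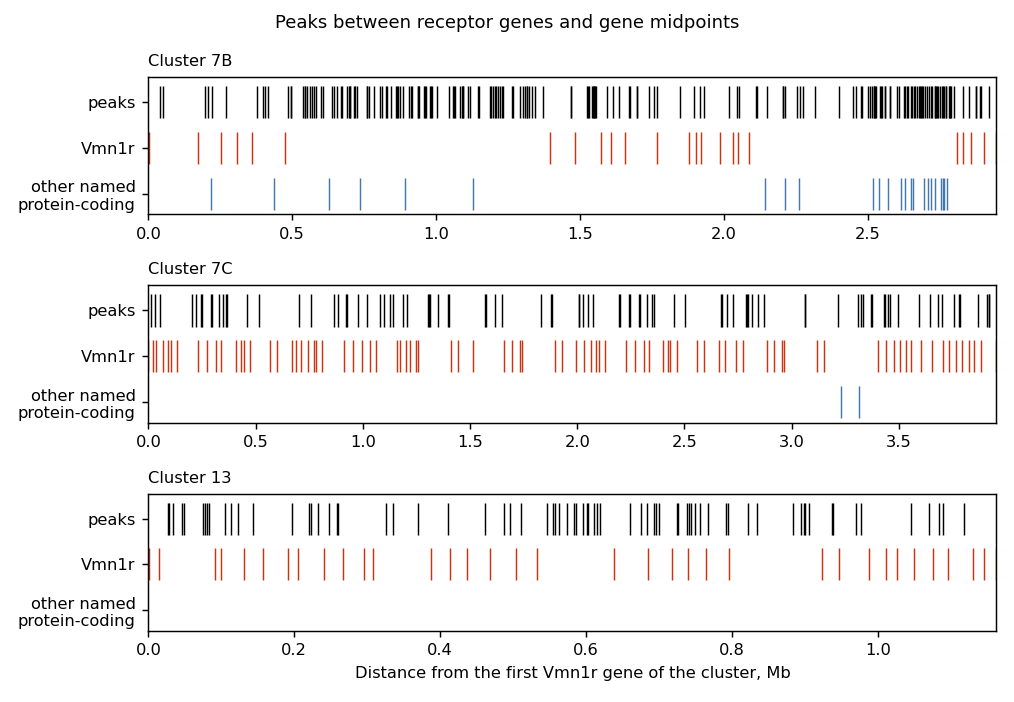
Maps of clusters 7B, 7C and 13, with the distance from the first Vmn1r gene on the x axis (Mb). Rows of ticks mark peak midpoints between receptor genes (black) and Vmn1r gene midpoints (red). The blue row marks other named protein-coding genes that are no chemosensory receptors. In 7B peaks crowd where the red row is empty, and in 7C they are spread thinly among 86 receptor genes. Cluster 13 holds no gene of the blue row.

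The clusters also hold other genes, whose ends were compared with those of the receptors. Of the 221 V1R genes of the clusters, 10 had a peak at an end (4.52%, 2.48 to 8.13) and 80 had one within 10 kb (36.2%). Of 34 named protein-coding genes that lie wholly inside a cluster and are no chemosensory receptors, 22 had a peak at an end (64.7%, 47.9 to 78.5) and all 34 had one within 10 kb. The intervals for ends do not overlap, and the difference was not tested. The clusters also hold 18 protein-coding genes named only by a Gm number. Of those, 3 had a peak at an end (16.7%, 5.84 to 39.2) and 9 had one within 10 kb (50.0%). Their interval for ends overlaps that of the V1R genes, so the contrast holds for the named genes only. Of these 34 genes, 24 lie in 7B. In 6A, Ppm1k, Herc6, Pyurf and Lancl2 had a peak at an end and Vopp1 did not, and in cluster 17, Ppp2r1a and Zfp160 had one. Nlrp4e and Nlrp5, oocyte genes inside 7C, and Nlrp2 in 7A had none at an end but held peaks in their bodies.

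Most peaks between V1R genes lay away from any annotation. Of the 524, 387 (73.9%) touched no annotated gene and no 500 bp window at a gene end, 65 (12.4%) lay inside another gene, and 6 touched the end of a V1R gene. The same shares were not computed over all peaks, and the stretches leave out V1R gene bodies by definition. These shares therefore do not show whether the clusters differ from the rest of the genome. Ends of other named protein-coding genes and of Zfp genes took 19 and 10 peaks, with median widths of 1113 and 1095 bp against 580 bp for those away from genes. The widest peak of a cluster mostly lay away from genes. It stood at the end of Ppm1k in 6A (2006 bp) and at Vmn1r48 in 6C, and touched no annotated gene in the other 6 clusters, where it was 1881 bp (7A) to 2783 bp (7B) wide.

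Near-identical copies limit what can be read at many V1R genes. Of the 205 genes with an upstream sequence, 83 had another receptor gene at 95% identity or more, and 54 had an exact copy. In 7C, 73 of 83 genes had such a copy (88.0%), against 2 of 7 in 6B (28.6%), 2 of 14 in 6C (14.3%), 4 of 32 in cluster 13 (12.5%), 2 of 24 in 6A (8.33%) and none of 21 in 7B, 9 in 7A and 12 in cluster 17. Reads from such copies cannot always be placed, and the handling of such reads in these libraries is not stated in the labels. A peak lay within 10 kb of 22 of the 83 genes with a copy (26.5%, 18.2 to 36.9) and of 50 of the 122 without (41.0%, 32.7 to 49.9). In 7C, 20 of 73 genes with a copy had one (27.4%, 18.5 to 38.6), against 2 of 10 without (20.0%, 5.67 to 51.0). Outside 7C, 2 of 10 genes with a copy had one (20.0%, 5.67 to 51.0), against 48 of 112 without (42.9%, 34.1 to 52.1). The intervals of the groups of 10 genes are wide, and the parts of copies and of cluster in the low share of 7C were not tested.

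Peaks recurred at the same distance from some copies. Exact copies formed 21 sets, 20 of them in 7C. Vmn1r107 and Vmn1r155 had their nearest peaks at 53.4 kb each, on peaks of 314 and 307 bp, Vmn1r135 and Vmn1r163 at 81.3 kb each, on peaks of 600 and 585 bp, and Vmn1r104 and Vmn1r152 at 28.1 kb each. The genes of each pair lie far apart, so these are separate peaks in the list. In 13 of the 21 sets at least 1 pair had distances within 100 bp of each other, or 15 of 52 pairs over all sets. The same share was not computed for pairs of receptor genes that are not exact copies. The 6 genes that share the sequence of Vmn1r111 ranged more widely, with nearest peaks at 42.5 to 86.8 kb. Among them, Vmn1r131 and Vmn1r138 had nearly equal distances, of 42540 and 42542 bp.

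Other chemosensory receptor families were scored the same way. A peak lay at an end in 10 of 228 V1R genes (4.39%, 2.4 to 7.88), 6 of 122 type 2 vomeronasal receptor genes (4.92%, 2.27 to 10.3), 0 of 35 bitter taste receptor genes, which are distant relatives of V1R, 0 of 7 formyl peptide receptor genes, 55 of 1105 olfactory receptor genes (4.98%, 3.84 to 6.42) and 3 of 15 trace amine receptor genes (20.0%, 7.05 to 45.2). The interval for V1R genes overlaps each of these, and the upper bound is 9.89% for bitter taste and 35.4% for formyl peptide receptor genes. Within 10 kb the shares were 36.8% of V1R (30.8 to 43.3), 63.1% of Vmn2r (54.3 to 71.2), 48.6% of bitter taste (33.0 to 64.4), 42.9% of formyl peptide (15.8 to 75), 44.3% of olfactory (41.4 to 47.3) and 93.3% of trace amine receptor genes (70.2 to 98.8). Type 2 genes are longer, with a median of 24640.5 bp, and 43 of them held a peak in the body against 4 V1R genes, so their window is wider.

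**Figure D5:**
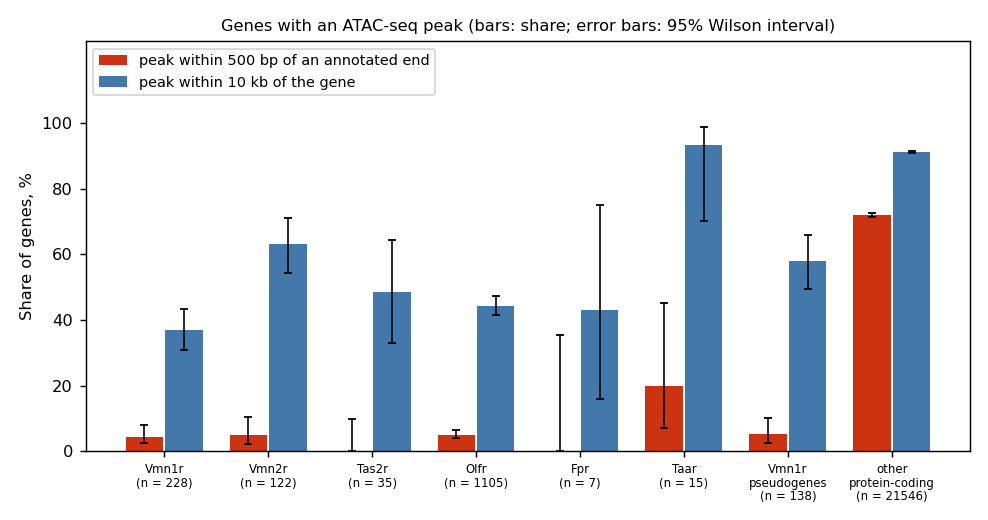
Share of genes (y axis, %) with a peak within 500 bp of an annotated end (red) and within 10 kb (blue) for V1R genes, 5 other receptor families, V1R pseudogenes and all other protein-coding genes (x axis, with the number of genes), with 95% Wilson intervals. The red bar is at 4.39% for V1R genes, at 20.0% for trace amine receptor genes, at 5.07% or less for the other receptor groups shown, and at 72.1% for other genes.

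Genes listed for vomeronasal signalling, gene regulation and receptor trafficking are read against the 71.4% of all protein-coding genes with a peak at an end. Of 14 signalling genes, 12 had one (85.7%, 60.1 to 96.0), an interval that holds the share over all genes. Among the 12 were Trpc2, the transduction channel, Gnai2, the G protein subunit of V1R neurons, Gnao1, that of type 2 neurons, and Gng8. Ano1, a chloride channel, and Kcnj3, a potassium channel, had none at an end but held peaks in their bodies. All 14 regulators examined, including Meis2 and Tfap2e, factors of apical and basal vomeronasal neurons, and Lhx2 and Kdm1a, had one (interval 78.5 to 100%). Of 5 trafficking genes, Reep1, Calr and Calr4 had a peak at an end and Rtp1 and Rtp2 did not (60%, 23.1 to 88.2). Of these genes, 8 also served as markers of vomeronasal neurons, 6 from the signalling list with Tfap2e and Meis2, and all 8 had a peak at an end, as did all 8 ES cell markers (both 67.6 to 100%). Peaks at ends thus did not separate these 2 marker lists.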

How the data were processed

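Positions of merged ATAC-seq peaks, deposited by the authors with no value per peak, were converted to 1-based intervals. MACS2 2.2.7.1, Trimmomatic 0.36 and Bowtie2 2.4.2, with builds mm10 and GRCm38, are listed in the submitters' processing notes without roles. The merging of peaks and the handling of duplicates and of reads with several positions are not given in the sources used here. A filter on such reads could remove peaks at copied genes. No column holds values of a library (0 left unused).

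Genes came from a RefSeq table of GRCm38.p6 without strand. Of its 49997 genes, 49595 were placed on a chromosome, and the rest, 348 of them with scaffold coordinates, were left out. Strand came from RefSeq promoter entries, the first for each gene, which matched 205 V1R genes. Identity is 100% minus the edit distance as a percentage of 300 bases (edlib 1.3.9). Shares carry 95% Wilson intervals, apart from the bound for coverage at the annotated start, and densities exact Poisson intervals. No test was run. Functions were tested on simulated peaks over 21774 genes, with 0 wrong calls. Members, gene lists and rules were chosen with earlier results of these data known. Named genes are all those with a peak at an end, the nearest other and the farthest of each cluster, and list members in list order. Genes printed for exact copies, family ligands and genes within clusters were added after their values were seen. Computation used scipy 1.17.1, pandas 2.3.3 and numpy 2.4.6 under Python 3.11.15, and plots matplotlib 3.10.9.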

Additional observations from a re-analysis of the deposited data

How the results depend on the processing

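Of 28 alternatives, 13 left a value within 1.5 times (shares) or within its interval (medians and densities). With windows of 250 and 2000 bp, the share with a peak at an end was 2.63% and 7.89%, against 68.8% and 79.7% of protein-coding genes. With only peaks wider than 578 bp it was 1.75%, against 66.7%. Within 500 bp of the start in the promoter table, for 205 V1R genes, it was 1.95%, against 69.6%. The share within 10 kb was 16.7% with an extension of 5 kb and 77.6% with 25 kb, against 87.2% and 95.8%. With only wide peaks the median distance was 20.6 kb, and densities were 22.8 peaks per Mb between receptor genes and 60.8 beside the clusters. Splitting clusters at 500 kb gave 36.7 between receptor genes, and flanks of 1 Mb gave 92.0. Chosen after seeing the data, leaving out 7C gave 7.04% with a peak at an end, since 7C held none of the 10, 54.2 peaks per Mb between receptor genes and 90.9 beside the clusters. Leaving out 7B gave 36.9 between receptor genes. No paired analysis was possible because the deposited list holds no value of any library, and for the same reason no replicate could be left out. Unsequenced bases and repeats were not analysed, and depth is unknown, so a missing peak does not show closed chromatin.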

Other observations

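V1R pseudogenes, relics of the same duplications, number 138 on assembled chromosomes. A peak at an end was found for 4.39% of the V1R genes (2.4 to 7.88) and for 7 of the pseudogenes (5.07%, 2.48 to 10.1). Within 10 kb, 36.8% of the V1R genes had a peak (30.8 to 43.3), against 80 of the 138 pseudogenes (58.0%, 49.6 to 65.9), and the intervals do not overlap. That depends on which V1R genes are counted. Without the genes of 7C their share was 43.0% (35.1 to 51.2), and without those with a near-identical upstream window 41.0% (32.7 to 49.9). Both intervals overlap that of all pseudogenes, which were not split in these ways. The median distance was 12.8 kb for V1R genes and 8.06 kb for pseudogenes. Median annotated lengths were 924 bp and 852 bp. Inside the clusters alone the shares were 36.2% of 221 genes and 57.3% of 110 pseudogenes. The difference was not tested.

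The 7 V1R genes outside clusters included 4 on chromosomes with at most 2 members, and these 4 stood close to a peak. Vmn1r1 on chromosome 1 had 6 peaks within 10 kb, the nearest at 1.6 kb. Vmn1r2 (3172083 to 3173003) and Vmn1r3 (3184385 to 3185305) on chromosome 4 had their nearest peaks at 1.72 and 3.40 kb. These neighbours share peaks within 10 kb, so they are not separate cases. Vmn1r238 (chromosome 18, 3122492 to 3123412) had its nearest at 2.51 kb, a wide peak of 4491 bp. Vmn1r2, Vmn1r3 and Vmn1r238 also lie near the low-coordinate end of their chromosomes. That position was not tested apart from their place outside clusters. Vmn1r90, Vmn1r184 and Vmn1r185 on chromosome 7 had theirs at 24.4, 14.6 and 13 kb.

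By place within a cluster, 19 of 78 genes over 500 kb from a cluster edge had a peak within 10 kb (24.4%, 16.2 to 34.9), against 22 of 47 genes within 100 kb of an edge (46.8%, 33.3 to 60.8) and 39 of 96 in between (40.6%). Within 7C the shares were 12 of 57 (21.1%, 12.5 to 33.3) over 500 kb inside, 3 of 7 (42.9%, 15.8 to 75) within 100 kb of an edge and 8 of 22 (36.4%) in between. In 7B they ran the other way, with 5 of 13 (38.5%), 1 of 4 (25.0%) and 2 of 7 (28.6%). In 6A the shares were 1 of 5, 3 of 5 and 4 of 18, and in cluster 13 they were 1 of 3, 5 of 9 and 14 of 23. Within each of these 4 clusters the intervals overlap, and the difference was not tested.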
